A study of Mus musculus with 16 samples.

Results

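The 10 genes described here encode the MHC class II antigen presentation machinery of the mouse and were taken by name from a table of 55291 genes. They are the classical chain genes H2-Aa, H2-Ab1 and H2-Eb1, the H2-O chain genes H2-Oa and H2-Ob, the H2-M chain genes H2-DMa, H2-DMb1 and H2-DMb2, the invariant chain gene Cd74, and the transactivator gene Ciita. All 10 passed the filter on low counts, beside 22749 genes tested in all. Single-gene counts ran between 255 reads (H2-DMb2) and 17289 reads (Cd74), so counting error was small against the spread between mice.

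LSK cells, the Lin-cKit+Sca-1+ stem and progenitor fraction, were purified with beads out of the bone marrow of 16 C57BL/6 mice and their RNA was sequenced, 1 library per mouse and 4 mice per genotype. The double mutants, DM, had the genotype Asxl1Y588XTg;Srsf2P95H/+, and the single mutants were Asxl1Y588XTg and Srsf2P95H/+. Asxl1 encodes a chromatin regulator, of which the transgene expresses a truncated form, and Srsf2 a splicing factor carrying the missense mutation on 1 allele. The fourth genotype was wild type (WT). The labels give no age, sex, batch, promoter of the transgene or Cre line. The series' design text counts 3 DM samples, but labels and table give 4, all used here.

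Library totals averaged, in megacounts, 120 ± 6.47 in DM, 93.6 ± 7.02 in Asxl1Y588XTg, 99.1 ± 6.08 in Srsf2P95H/+ and 97.8 ± 18.7 in WT (SD, n = 4 each). Kit read 699 to 1211 CPM (counts per megacount of the library, scaled by TMM factors) in all 16 libraries and Ly6a, which encodes Sca-1, 23.2 to 54.3 CPM. Xist was at 1566 CPM or more in 5 libraries, spread over all 4 genotypes (DM 1, Asxl1Y588XTg 3, Srsf2P95H/+ 2 and 3, WT 1), and was at or below 2.11 CPM in the others.

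MHC class II molecules are pairs of an alpha and a beta chain that display peptides from endosomes to CD4+ T cells. The invariant chain escorts new pairs to the endosome. There H2-M exchanges the remnant of the invariant chain for peptides, and H2-O holds H2-M back. CIITA drives transcription of these genes by joining the factors RFX, CREB and NF-Y on a shared promoter unit, the X and Y boxes. The highest levels are known in dendritic cells, B cells and macrophages, and lower levels have been described in haematopoietic progenitors. C57BL/6 mice lack H2-Ea expression through a promoter deletion, and H2-Ea was at 0 counts in 14 of the 16 libraries, with at most 3 counts in the others.

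On GRCm38, all members but Ciita and Cd74 lie in 1 stretch of chromosome 17. In order along it they are H2-Oa (chr17:34092340-34095234), H2-DMa (chr17:34119541-34139101), H2-DMb2 (chr17:34143307-34151555), H2-DMb1 (chr17:34153072-34160230), H2-Ob (chr17:34238903-34254414), H2-Ab1 (chr17:34257689-34269419), H2-Aa (chr17:34282744-34287823, minus strand) and H2-Eb1 (chr17:34305867-34316674). Ciita lies on chromosome 16 (chr16:10480059-10528418).

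The X and Y boxes can be read in the promoters. RefSeq promoters on GRCm38.p6, each covering 250 bases before and 50 bases after a transcript start, were held for 7 of the 10 members (8 promoters). They were searched on both strands for the Y box core ATTGG, the X2 core TGATG or TGACG and the X1 core AGCAAC. An X2 core followed on the same strand, after 10 to 30 bases, by ATTGG stood in 5 of the 8 member promoters and in 1.84% of all 32851 promoters of that length; this spacing was set after the sequences had been seen. Single cores were common, with ATTGG in 37.4%, an X2 core in 53.1% and AGCAAC in 14.8% of all promoters. The 5 stretches are shown 5′ to 3′ on the coding strand, because they are the control element these genes share whether or not they moved together in the libraries. Capitals mark 1 spaced pair in each, the X2 core farthest before ATTGG within those limits, with the X1 core where present; H2-Eb1 and H2-DMb1 hold further TGATG letters, left in lower case.
H2-Ob (chr17:34238806-34238857, plus strand): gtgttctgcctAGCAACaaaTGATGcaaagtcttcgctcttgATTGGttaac
H2-Eb1 (chr17:34305761-34305817, plus strand): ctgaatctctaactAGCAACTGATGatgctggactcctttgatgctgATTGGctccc
H2-Aa (chr17:34287862-34287917, minus strand): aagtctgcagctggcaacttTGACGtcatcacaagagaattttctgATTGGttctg
H2-DMb1 (chr17:34153082-34153139, plus strand): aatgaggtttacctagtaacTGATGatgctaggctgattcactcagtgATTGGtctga
H2-DMb2 (chr17:34145114-34145168, plus strand): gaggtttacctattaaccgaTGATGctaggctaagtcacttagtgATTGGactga

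The gap between the capitalised X2 core and ATTGG was 17 bases in H2-Ob, 22 in H2-Eb1, 21 in H2-Aa, 23 in H2-DMb1 and 20 in H2-DMb2. ATTGG began 57 bases before the start of H2-Ob and 48 to 90 bases before the start of the other 4. The exact X1 core AGCAAC preceded the X2 core in H2-Ob and H2-Eb1. The H2-Oa promoter held ATTGG and AGCAAC but no X2 core, and neither of the 2 H2-DMa promoters held the spaced pair. These matches are letters in a window and are no measure of binding.

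Levels of the 10 genes differed widely. Per kilobase of annotated exon, WT libraries averaged 55.5 ± 27.8 CPM for Cd74, 27.7 ± 2.95 for H2-DMa, 26.1 ± 5.53 for H2-Ab1, 15.6 ± 7.17 for H2-Eb1, 15.3 ± 0.912 for H2-DMb1, 13.8 ± 5.13 for H2-Aa, 12.7 ± 3.02 for H2-Ob, 5.95 ± 0.677 for H2-Oa, 2.05 ± 0.251 for H2-DMb2 and 1.08 ± 0.451 for Ciita (SD, n = 4). In this order, Cd74, H2-DMa and H2-Ab1 overlapped in their WT libraries, as did the 4 genes H2-Eb1, H2-DMb1, H2-Aa and H2-Ob. The WT levels of H2-Ob and H2-Oa per kilobase did not overlap. In DM, H2-Ob averaged 5.84 ± 0.854 CPM per kilobase and H2-Oa 5.86 ± 0.942.

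H2-Ob, which encodes the beta chain of H2-O, was the member that changed. It read 24.8, 32.3, 35.2 and 33.4 CPM in DM, 22.1, 45.5, 27.2 and 21.95 CPM in Asxl1Y588XTg, 27.9, 53.0, 31.8 and 30.9 CPM in Srsf2P95H/+, and 44.9, 70.9, 82.0 and 75.5 CPM in WT. All 4 DM libraries lay below all 4 WT libraries. In each single mutant, 3 libraries lay below every WT library, and the fourth (Asxl1Y588XTg 2, Srsf2P95H/+ 2) exceeded WT 1, the lowest WT library. Group means were 31.4 ± 4.59 CPM in DM, 29.2 ± 11.2 in Asxl1Y588XTg, 35.9 ± 11.5 in Srsf2P95H/+ and 68.3 ± 16.2 in WT.

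The quasi-likelihood test of edgeR, adjusted by Benjamini-Hochberg over all 22749 genes and called at an adjusted p under 0.05, placed H2-Ob lower in DM than in WT, by a log2 fold change of -1.12 (SE 0.27, adjusted p = 0.0237). It was also lower in Asxl1Y588XTg than in WT, by -1.23 (SE 0.27, adjusted p = 0.0345). The difference in Srsf2P95H/+ against WT was -0.93 (SE 0.26, adjusted p = 0.0685) and was not called. The 3 comparisons share the 4 WT libraries, so they are not independent of one another. DM and the single mutants were not separated, with 0.10 against Asxl1Y588XTg (adjusted p = 0.880) and -0.19 against Srsf2P95H/+ (adjusted p = 0.993). The interaction, the DM change beyond the sum of the single-mutant changes on the log2 scale, was 1.03 (SE 0.37, adjusted p = 0.378).

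The calls depended on single mice. In DM against WT the call was lost without DM 1, 2 or 4 or without WT 3 or 4, with adjusted p 0.0558 to 0.0790 and log2 fold changes between -1.15 and -1.02. In Asxl1Y588XTg against WT it was lost without Asxl1Y588XTg 1, 3 or 4 or without WT 2, 3 or 4, with adjusted p 0.0756 to 0.133 and log2 fold changes between -1.21 and -1.09. Without Srsf2P95H/+ 2 or without WT 1, H2-Ob was called in Srsf2P95H/+ against WT too, at -1.18 (adjusted p = 0.0311) and -1.08 (adjusted p = 0.0316). DESeq2 called it in all 3, with adjusted p of 0.000256 in DM, 0.000103 in Asxl1Y588XTg and 0.00728 in Srsf2P95H/+, each against WT.

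**Figure D1:**
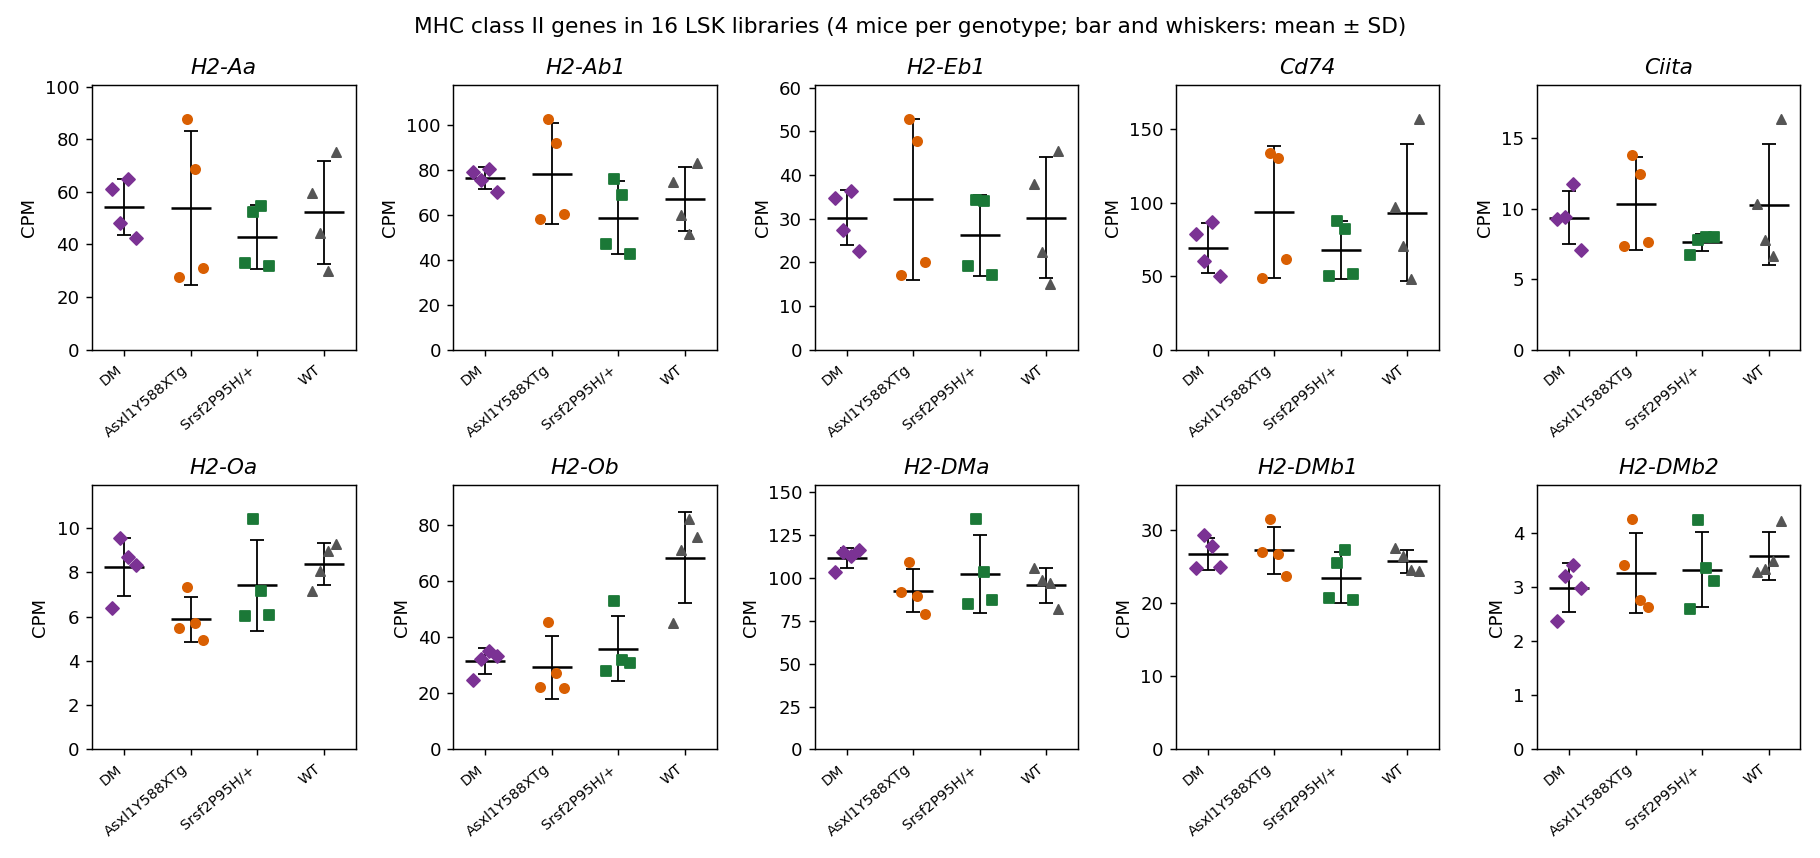
Each panel plots 1 of the 10 genes in CPM (TMM-scaled, axis from 0), with 1 point per library and a bar at the group mean, for DM, Asxl1Y588XTg, Srsf2P95H/+ and WT from left to right. In the H2-Ob panel the 4 WT libraries lie between 44.9 and 82.0 CPM and the 4 DM libraries between 24.8 and 35.2 CPM; in the other 9 panels every mutant group overlaps WT.

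H2-Oa, the alpha chain that pairs with H2-Ob, was not called in any comparison. It read 6.41, 9.55, 8.68 and 8.36 CPM in DM, 5.50, 7.33, 5.73 and 4.96 CPM in Asxl1Y588XTg, 6.05, 10.4, 7.16 and 6.06 CPM in Srsf2P95H/+, and 7.16, 8.08, 8.97 and 9.27 CPM in WT. Of the 4 Asxl1Y588XTg libraries, 3 were below every WT library, whereas DM spanned the WT range. The log2 fold change was -0.51 in Asxl1Y588XTg against WT (adjusted p = 0.127) and 0.49 in DM against Asxl1Y588XTg (adjusted p = 0.176). Without Asxl1Y588XTg 2 the first of these was called, at -0.63 (adjusted p = 0.0473). Antisense gene BC051537 overlaps 22.8% of the exon bases of H2-Oa, and without a stated strand setting reads of that stretch cannot be assigned to 1 of them; no annotated gene shares exon bases with H2-Ob.

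The ratio of H2-Ob to H2-Oa CPM separated every mutant group from WT. It lay between 3.38 and 4.05 in DM (mean 3.82 ± 0.304), between 4.03 and 6.21 in Asxl1Y588XTg (4.85 ± 0.951), between 4.44 and 5.10 in Srsf2P95H/+ (4.81 ± 0.336) and between 6.28 and 9.14 in WT (8.09 ± 1.27; SD, n = 4 each). This ratio was looked at after the values of both genes were known, and is given as a description.

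**Figure D2:**
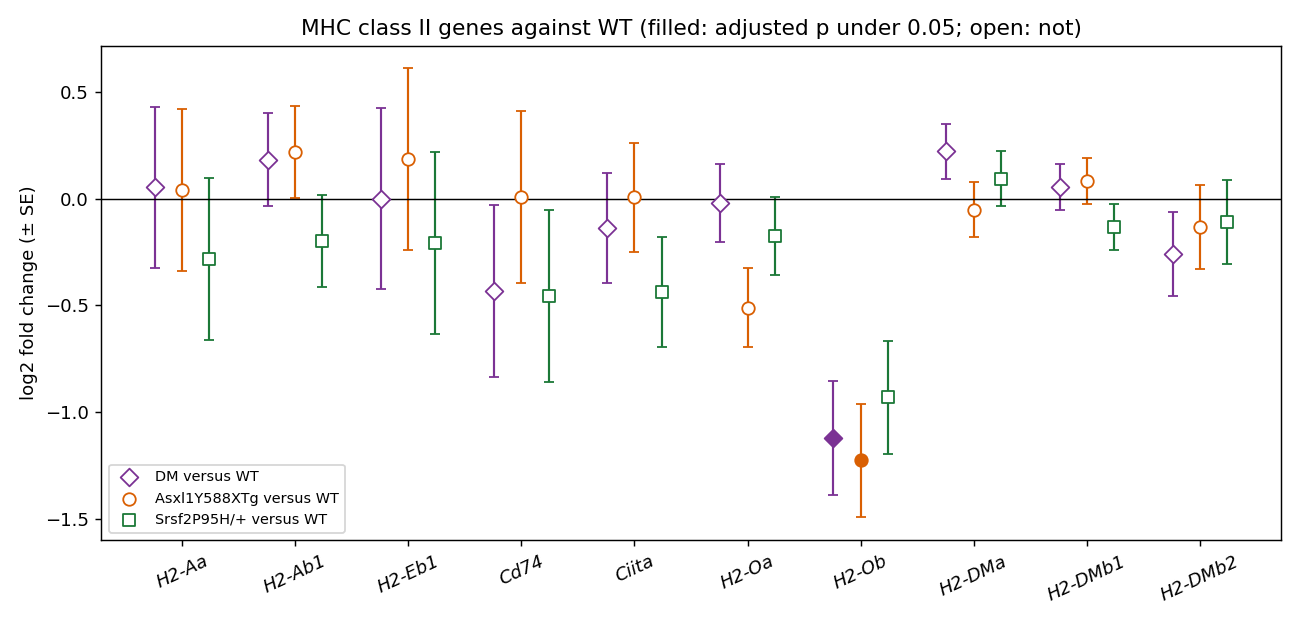
Log2 fold change against WT (± SE) for the 10 genes, with diamonds for DM, circles for Asxl1Y588XTg and squares for Srsf2P95H/+; filled symbols passed an adjusted p of 0.05 and open ones did not. The 2 filled symbols are H2-Ob in DM at -1.12 and in Asxl1Y588XTg at -1.23, and H2-Ob in Srsf2P95H/+ stands at -0.93 unfilled.

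H2-Ob was thus 1 of 10 members called lower in DM against WT, where 9.39% of all genes were called and 4.73% were called lower. Groups without overlap between DM and WT were found for H2-Ob alone among the members, and for 18.6% of all genes. Asxl1Y588XTg and WT overlapped for all 10 members, as did Srsf2P95H/+ and WT, where 8.98% and 13.7% of all genes did not overlap. In Asxl1Y588XTg against WT 1 of 10 was called, where 1.88% of all genes were called and 0.760% were called lower. In Srsf2P95H/+ against WT 0 of 10 were called by edgeR (background 0.506%), with 1 member, H2-Ob, at an unadjusted p under 0.05. In DM against Asxl1Y588XTg 0 of 10 were called by edgeR (background 1.08%), with 2 members at an unadjusted p under 0.05. In DM against Srsf2P95H/+ 0 of 10 were called by edgeR (background 0.246%), with 0 at an unadjusted p under 0.05. DESeq2 called 1 member in Srsf2P95H/+ against WT and 0 in DM against either single mutant. Over all genes it called 13.4% in Srsf2P95H/+ against WT, 5.81% in DM against Asxl1Y588XTg and 1.03% in DM against Srsf2P95H/+. The shares of all genes at an unadjusted edgeR p under 0.05 were 25.3%, 17.8% and 6.48% in the same order.

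Across the list, the median log2 fold change of the 10 members was -0.01 in DM, 0.01 in Asxl1Y588XTg and -0.20 in Srsf2P95H/+, each against WT. The medians over all tested genes were -0.02, -0.04 and -0.05 in the same order. Member values spanned -1.12 to 0.22 in DM, -1.23 to 0.22 in Asxl1Y588XTg and -0.93 to 0.09 in Srsf2P95H/+. With H2-Ob standing at the low end in all 3, the list as a whole sat near the centre of all genes in DM and Asxl1Y588XTg.

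For the interaction, 0 of 10 members and 0.00% of all genes were called by edgeR. DESeq2 called 0 members and 0.229% of all genes. An unadjusted edgeR p under 0.05 was reached by 2 members, H2-Oa and H2-Ob, and by 2670 genes in all (11.7%). The log2 value of the interaction was 0.66 for H2-Oa (adjusted p = 0.382). Mice that carry Asxl1Y588XTg (DM and Asxl1Y588XTg) were pooled against those that do not (Srsf2P95H/+ and WT). There 0 of 10 members were called by edgeR, against 1.85% of all genes. H2-Ob alone had an unadjusted edgeR p under 0.05, at -0.71 (adjusted p = 0.0749), a level reached by 15.4% of all genes. H2-Ab1 stood at 0.30 there (adjusted p = 0.370). H2-Ob was called in that comparison by DESeq2 (adjusted p = 0.00289), without Asxl1Y588XTg 2 (-0.86, adjusted p = 0.0102) and without WT 1 (-0.79, adjusted p = 0.0317). Pooling the carriers of Srsf2P95H/+ (DM and Srsf2P95H/+) against non-carriers, 0 of 10 were called by edgeR, against 10.6% of all genes. DESeq2 also called 0 of 10 there, against 17.99% of all genes. H2-Ob, at -0.41 (adjusted p = 0.159), was the 1 member at an unadjusted edgeR p under 0.05. Cd74 stood at -0.45 (adjusted p = 0.315).

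For the classical chains and the invariant chain, the range over the 4 mice within Asxl1Y588XTg and within WT exceeded the differences between genotype means. H2-Aa, an alpha chain, read 60.9, 48.3, 65.0 and 42.5 CPM in DM, 27.6, 87.5, 68.7 and 31.2 CPM in Asxl1Y588XTg, 32.9, 52.5, 54.5 and 31.9 CPM in Srsf2P95H/+, and 59.6, 44.3, 29.9 and 75.1 CPM in WT. Asxl1Y588XTg held both the highest and the lowest of the 16 libraries, 2 and 1. H2-Ab1, the beta chain that pairs with it, averaged 76.2 ± 4.77 CPM in DM, 78.1 ± 22.4 in Asxl1Y588XTg, 58.6 ± 16.2 in Srsf2P95H/+ and 67.1 ± 14.2 in WT. H2-Eb1, a beta chain whose usual partner is H2-Ea, averaged 30.3 ± 6.35 CPM in DM, 34.4 ± 18.5 in Asxl1Y588XTg, 26.2 ± 9.23 in Srsf2P95H/+ and 30.3 ± 13.9 in WT. None of the 3 classical chains was called in any of the 8 comparisons by edgeR.

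Cd74 (chr18:60803848-60812652) had the same kind of spread. It read 78.9, 59.96, 86.9 and 50.03 CPM in DM, 48.9, 134, 131 and 61.4 CPM in Asxl1Y588XTg, 50.3, 87.5, 81.8 and 51.7 CPM in Srsf2P95H/+, and 97.2, 70.6, 48.2 and 157 CPM in WT. WT held the highest and the lowest library of the 16, WT 4 and WT 3. Ciita averaged 9.36 ± 1.90 CPM in DM, 10.3 ± 3.29 in Asxl1Y588XTg, 7.60 ± 0.620 in Srsf2P95H/+ and 10.3 ± 4.30 in WT, and was highest in WT 4, at 16.3 CPM, and lowest in WT 3, at 6.67 CPM. Across all 16 libraries the highest value was 3.73 times the lowest for H2-Ob, 3.50 times for H2-Eb1, 3.25 times for Cd74, 3.17 times for H2-Aa, 2.45 times for Ciita and 2.41 times for H2-Ab1. Within genotypes, the pooled SD on the log2 scale was 0.63 for H2-Eb1, 0.59 for Cd74, 0.56 for H2-Aa and 0.39 for H2-Ob. Among genes of like level (5 to 150 CPM) these SDs stood at the percentiles 97.7, 97.3, 97.2 and 93.6.

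These genes moved together from mouse to mouse. Over 16 libraries, the log2 CPM of H2-Aa had a Pearson r of 0.98 with H2-Eb1 (Spearman rho 0.97), 0.90 with H2-Ab1 (rho 0.90) and 0.91 with Cd74 (rho 0.91). Cd74 and Ciita had an r of 0.90 (rho 0.85). After removing genotype means, the r of H2-Aa with H2-Eb1 was 0.99 and with Cd74 0.97. Over the 10 pairs among H2-Aa, H2-Ab1, H2-Eb1, Cd74 and Ciita, r lay between 0.76 and 0.98. H2-Ob followed them less closely, with an r of 0.08 to 0.29 with those 5 genes, and 0.30 to 0.46 after removing genotype means. This was not particular to H2-Ob. The r with the same 5 genes was 0.17 to 0.35 for H2-Oa, -0.04 to 0.42 for H2-DMa, 0.31 to 0.43 for H2-DMb2 and 0.46 to 0.76 for H2-DMb1. Between H2-Ob and H2-Oa, r was 0.73 (rho 0.81), and 0.89 after removing genotype means. Between H2-Ob and H2-DMb2 it was 0.68 (rho 0.72), and 0.78 after removing genotype means. All of these values share their libraries and scaling, and they are descriptions.

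The H2-M genes varied least. H2-DMa, the alpha chain, averaged 112 ± 5.81 CPM in DM, 92.3 ± 12.5 in Asxl1Y588XTg, 102 ± 22.8 in Srsf2P95H/+ and 95.7 ± 10.2 in WT. H2-DMb1, a beta chain, averaged 26.7 ± 2.20 CPM in DM, 27.2 ± 3.17 in Asxl1Y588XTg, 23.4 ± 3.45 in Srsf2P95H/+ and 25.7 ± 1.53 in WT. H2-DMb2, its close copy, averaged 2.99 ± 0.453 CPM in DM, 3.26 ± 0.743 in Asxl1Y588XTg, 3.33 ± 0.686 in Srsf2P95H/+ and 3.58 ± 0.439 in WT. No H2-M gene was called in any of the 8 comparisons, and the highest library was 1.54 times (H2-DMb1) to 1.80 times (H2-DMb2) the lowest. Transcripts of the 2 beta chain genes are 77.6% identical over 1485 aligned positions, and 10.3% of the 100-base words of H2-DMb2 also occur in H2-DMb1, so reads of those stretches are uncertain between them. Brd2 shares 10.4% of the exon bases of H2-DMa.

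No neighbour of H2-Ob on chromosome 17 was called alongside it. The stretch between H2-Oa and H2-Eb2 holds 18 annotated genes of the table, 16 of them tested, among them the peptide transporter genes Tap1 and Tap2, the immunoproteasome genes Psmb8 and Psmb9, and 8 members. H2-Ob was the 1 gene of the 16 called in DM against WT and in Asxl1Y588XTg against WT, where edgeR called 9.39% and 1.88% of all genes. In Srsf2P95H/+ against WT 0 of the 16 were called by edgeR, and 0.506% of all genes. DESeq2 called 1, H2-Ob, in each mutant against WT, and 17.9%, 8.68% and 13.4% of all genes in DM, Asxl1Y588XTg and Srsf2P95H/+. An unadjusted edgeR p under 0.05 was reached by 3, 3 and 2 of the 16 in that order, and by 30.6%, 21.5% and 25.3% of all genes. Few calls among 16 genes say little about the stretch. The nearest flanking member, H2-Ab1, overlapped between all mutant groups and WT.

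**Figure D3:**
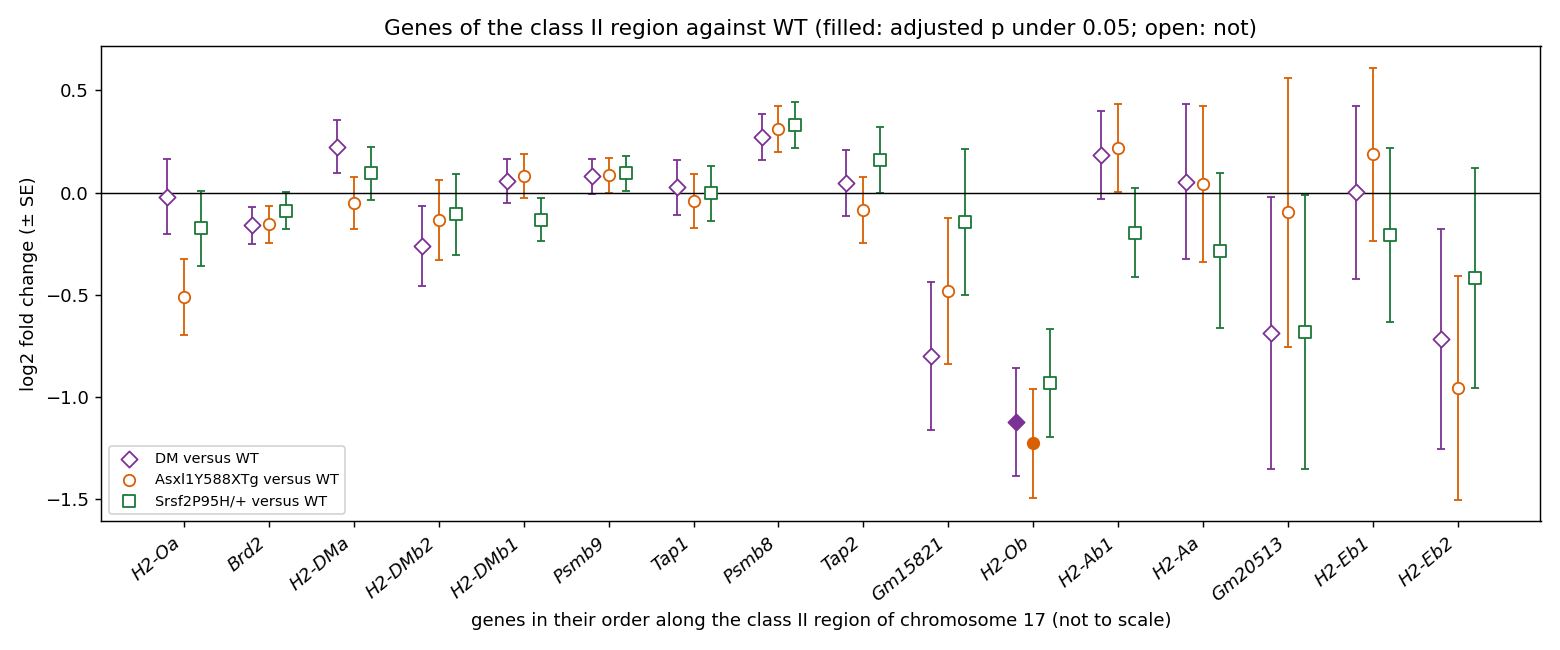
Log2 fold change against WT (± SE) for the tested genes between H2-Oa and H2-Eb2 in their order along chromosome 17, evenly spaced, with diamonds for DM, circles for Asxl1Y588XTg and squares for Srsf2P95H/+; filled symbols passed an adjusted p of 0.05. The 2 filled symbols are those of H2-Ob, at -1.12 in DM and -1.23 in Asxl1Y588XTg.

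Other genes of the pathway were read as 4 lists. A list of 10 genes held further class II chains, endosomal proteases, GILT and the ubiquitin ligases Marchf1 and Marchf8, and 9 of them were tested. In DM against WT 1 rose, in Asxl1Y588XTg against WT 2 rose, and none was called lower in either; 4.65% and 1.12% of all genes were called higher there. In Srsf2P95H/+ against WT 0 were called by edgeR. DESeq2 called 2 of the 9 in DM (Ctsd and Ifi30), 3 in Asxl1Y588XTg (Ctsb, Ctsd and Ifi30) and 0 in Srsf2P95H/+, each against WT, where it called 17.9%, 8.68% and 13.4% of all genes. An unadjusted edgeR p under 0.05 was reached by 5, 3 and 1 of the 9 in that order, and by 30.6%, 21.5% and 25.3% of all genes. Ifi30, which encodes the endosomal thiol reductase GILT, was higher in DM at 14.1 CPM, against 9.53 CPM in WT (log2 fold change 0.57, SE 0.16, adjusted p = 0.0359). In Asxl1Y588XTg it stood at 17.01 CPM, against the same 9.53 CPM in WT (0.84, SE 0.16, adjusted p = 0.0136), and every Asxl1Y588XTg library, at 14.9 to 18.8 CPM, lay above every WT library, at 6.67 to 11.6 CPM. Ctsd, a lysosomal protease gene, was higher in Asxl1Y588XTg at 194 CPM, against 153 CPM in WT (0.34, adjusted p = 0.0465). The median of the 9 was 0.24 in DM and 0.28 in Asxl1Y588XTg, against -0.02 and -0.04 over all genes. The Ifi30 call in Asxl1Y588XTg was lost without Asxl1Y588XTg 4 (0.79, adjusted p = 0.0542), and that in DM without DM 1, 2 or 4 or WT 2 or 3 (adjusted p 0.0683 to 0.116). The Ctsd call was lost without Asxl1Y588XTg 1 or 4 or WT 2, 3 or 4 (adjusted p 0.0927 to 0.168). Library size scaling ended the calls of Ctsd (adjusted p = 0.0602) and of Ifi30 in DM (0.0797), and a fit of the compared groups alone those of Ctsd (0.148) and of Ifi30 in DM (0.0648) and in Asxl1Y588XTg (0.0717).

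The 7 factors of the X and Y box complex (the RFX, CREB and NF-Y subunit genes of the list) gave 0 calls against WT in each mutant by edgeR and by DESeq2, with 1 in DM, 0 in Asxl1Y588XTg and 2 in Srsf2P95H/+ at an unadjusted p under 0.05. Creb1 was the 1 called in carriers of Srsf2P95H/+ against non-carriers (0.29, adjusted p = 0.0180; lost without DM 1 at 0.0584 or Srsf2P95H/+ 1 at 0.0508). Of 17 MHC class I genes, 0 were called against WT in each mutant by edgeR, with 4 in DM, 2 in Asxl1Y588XTg and 4 in Srsf2P95H/+ at an unadjusted p under 0.05; DESeq2 called 3, 0 and 2 in that order, from 17.9%, 8.68% and 13.4% of all genes, and the unadjusted shares over all genes were 30.6%, 21.5% and 25.3%. B2m (0.21, adjusted p = 0.0403) and Erap1 (0.22, adjusted p = 0.0248) were called higher in carriers of Srsf2P95H/+ against non-carriers, where 6.57% of all genes were called higher. The Erap1 call was lost without DM 1 or 2, Asxl1Y588XTg 1 or Srsf2P95H/+ 1 or 3 (adjusted p 0.0503 to 0.0784). The B2m call held without DM 3, Asxl1Y588XTg 3, Srsf2P95H/+ 4 or WT 1 and was lost without any other library (adjusted p 0.0507 to 0.104). Scaling by library size alone ended the calls of Creb1, B2m and Erap1 (adjusted p = 0.113, 0.205 and 0.0975). Of 11 interferon-gamma pathway genes, which act upstream of Ciita in many cells, Ifngr2 rose in DM against WT (0.38, adjusted p = 0.0395) and Irgm1 fell in Asxl1Y588XTg against WT (-0.28, adjusted p = 0.0392), each 1 of 11, where 4.65% of all genes were called higher in DM and 0.760% lower in Asxl1Y588XTg. DESeq2 called the same 1 in DM, Irgm1 and Jak2 in Asxl1Y588XTg, and 0 in Srsf2P95H/+, where edgeR also called 0. An unadjusted p under 0.05 was reached by 2 of the 11 in DM, 7 in Asxl1Y588XTg and 3 in Srsf2P95H/+, against 30.6%, 21.5% and 25.3% of all genes. Library size scaling ended the calls of Ifngr2 (adjusted p = 0.128) and Irgm1 (0.0722), and a fit of the compared groups alone that of Irgm1 (0.145). The Ifngr2 call was lost without DM 1, 2 or 4 or any WT library (adjusted p 0.0548 to 0.109), and the Irgm1 call without Asxl1Y588XTg 1, 3 or 4 or WT 2, 3 or 4 (adjusted p 0.0655 to 0.161).

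Marker genes of class II-bearing cells were read in the same libraries. In bulk RNA, fewer cells of a type and less RNA per cell cannot be told apart. Of 14 B lineage markers, Ms4a1, which encodes CD20, was at 0 in 2 libraries. The summed level of the list without Ighm was 33.8 to 50.3 CPM in DM, 35.3 to 50.4 in Asxl1Y588XTg, 35.1 to 47.2 in Srsf2P95H/+ and 33.3 to 172 in WT, with 172 in WT 4, the library highest in Cd74 and Ciita. Asxl1Y588XTg 2 and 3, at 50.4 and 35.3 CPM of those markers, had Cd74 at 134 and 131 CPM. Ighm, left out of that sum, was at 159 CPM in Asxl1Y588XTg 2, 1249 CPM in Asxl1Y588XTg 3 and 1122 CPM in WT 4. Of that sum, Cd79b made up 21.3 to 30.5 CPM over the 16 libraries. The median log2 fold change of the 14 genes against WT was -1.70 in DM, -1.45 in Asxl1Y588XTg and -1.50 in Srsf2P95H/+. All of them but Ighm were highest in WT 4. By edgeR, 1 was called lower in DM against WT (4.73% of all genes) and 0 in either single mutant.

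The sum of 11 conventional dendritic cell markers, among them Flt3, was 228 to 363 CPM in DM, 283 to 443 in Asxl1Y588XTg, 323 to 438 in Srsf2P95H/+ and 347 to 728 in WT. Most of it was Flt3, and the other 10 genes summed to 24.3 to 34.9 CPM in DM, 20.2 to 27.1 in Asxl1Y588XTg, 26.02 to 30.5 in Srsf2P95H/+ and 23.2 to 37.7 in WT, which overlapped. Single genes went both ways. Clec10a averaged 11.3 CPM in DM and 5.72 in WT, whereas Itgax read 3.37 to 5.80 CPM in DM and 6.34 to 10.5 in WT. Cd83 read 0.132 to 0.477 CPM in DM and 0.697 to 2.23 in WT. Of the 10 tested genes of the full list, 2 were called lower in DM against WT (4.73% of all genes), and 1 of these 2 was Flt3. The median log2 fold change of the 10 there was -0.76, and 0 were called in either single mutant against WT. The sum of 10 plasmacytoid dendritic cell markers was 435 to 487 CPM in DM, 409 to 510 in Asxl1Y588XTg, 446 to 572 in Srsf2P95H/+ and 485 to 526 in WT. Siglech, which defines those cells, was at 0.234 to 3.47 CPM. Within this list Irf8 averaged 118 CPM in DM and 89.9 in WT, whereas Pacsin1 read 0.181 to 0.401 CPM in DM and 1.02 to 1.92 in WT. Of its 9 tested genes, 2 were called lower in DM (median log2 fold change -0.71) and 2 in Asxl1Y588XTg (-0.87), each against WT. The 2 in Asxl1Y588XTg were Tcf4 and Runx2, and Tcf4 was 1 of the 2 in DM. In Srsf2P95H/+ against WT 0 were called. Over all genes, 4.73% were called lower in DM and 0.760% in Asxl1Y588XTg. The sum of 12 monocyte and macrophage markers was 234 to 301 CPM in DM, 244 to 421 in Asxl1Y588XTg, 211 to 364 in Srsf2P95H/+ and 60.4 to 311 in WT. The macrophage genes C1qa and Adgre1 reached their highest levels in Asxl1Y588XTg 1, at 24.8 CPM, and in WT 4, at 19.6 CPM. The part of these cells in the class II levels was not tested.

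The classical chains had their closest marker in Clec9a, a receptor gene of type 1 conventional dendritic cells and their precursors. Against the mean log2 CPM of H2-Aa, H2-Ab1, H2-Eb1 and Cd74, it had an r of 0.74 (rho 0.80) over 16 libraries, 0.88 after removing genotype means and 0.74 without Asxl1Y588XTg 2 and WT 3, at 0.580 to 4.16 CPM. Its lowest library was WT 3 and its highest WT 4, as for Cd74. Xcr1, a chemokine receptor gene of the same cells, stood at 1.49 to 4.36 CPM with an r of 0.64. Both had an r below 0 with H2-Ob, at -0.07 and -0.16. The other genes of the conventional dendritic cell list differed in their highest library. Itgax, Cd209a, Ccr7 and Cd83 were highest in WT 4, as was Clec9a, and Batf3 in Asxl1Y588XTg 3, as was Xcr1. Zbtb46 was highest in WT 2 and Clec10a in DM 2. Flt3 was highest in WT 3, the library lowest in the classical mean, and Clec4a4 stayed at or below 0.0103 CPM.

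Among 11269 genes of at least 2 CPM, those whose pattern was most like the mean of the 4 genes were Mycl (r 0.87, rho 0.84), Plbd1 (0.87, 0.85), Med12l (0.86, 0.84), Pdzd2 (0.81, 0.86), Naip5 (0.80, 0.81), Tlr3 (0.80, 0.78), Slamf7 (0.79, 0.83), Gata2 (0.79, 0.81), Alpk1 (0.78, 0.67) and Pdgfb (0.77, 0.76). Leaving out the 2 libraries farthest from the median, Asxl1Y588XTg 2 and WT 3, the r of these 10 lay between 0.69 (Gata2) and 0.87 (Med12l). Mycl encodes a MYC-family factor known in dendritic cells, Tlr3 a receptor for double-stranded RNA, and Slamf7 a surface receptor of lymphoid and myeloid cells. Plbd1 read 4.34 to 26.8 CPM over the WT libraries alone.

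The genes most like H2-Ob, a likeness looked at after its values were known, were a separate set. They were Spag1 (r 0.98, rho 0.96), Runx2 (0.97, 0.97), Pan3 (0.97, 0.95), Sdc4 (0.96, 0.94), Med13l (0.96, 0.97), Birc3 (0.95, 0.95), Tcf4 (0.94, 0.93), Rel (0.94, 0.96), Card6 (0.94, 0.91) and Dzip1 (0.94, 0.96). Leaving out WT 3 and WT 4, r stayed between 0.89 (Card6) and 0.97 (Spag1). Tcf4 encodes an E protein of lymphoid and plasmacytoid dendritic cell development, Runx2 a transcription factor also expressed there, Rel an NF-kappaB subunit and Birc3 an NF-kappaB target. Sdc4, a syndecan gene, averaged 4.43 ± 1.64 CPM in DM, 4.29 ± 1.96 in Asxl1Y588XTg, 5.66 ± 2.37 in Srsf2P95H/+ and 15.3 ± 5.89 in WT.

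Flt3, the receptor gene that marks lymphoid-primed multipotent progenitors within LSK cells, moved with H2-Ob. It read 203, 309, 305 and 337 CPM in DM, 265, 416, 256 and 284 CPM in Asxl1Y588XTg, 297, 407, 327 and 310.04 CPM in Srsf2P95H/+, and 319, 564, 705 and 644 CPM in WT. Asxl1Y588XTg 2, Srsf2P95H/+ 2 and WT 1, the libraries out of line for H2-Ob, were out of line for Flt3 in the same direction. The r between the 2 genes was 0.94 (rho 0.91) over 16 libraries, 0.88 after removing genotype means and 0.88 without WT 3 and WT 4. Flt3 differed from WT by -0.95 in DM (adjusted p = 0.0239), -0.87 in Asxl1Y588XTg (adjusted p = 0.0625) and -0.73 in Srsf2P95H/+ (adjusted p = 0.0791). The DM call of Flt3 was lost without DM 1 or 2 or WT 3 or 4 (adjusted p 0.0585 to 0.0762).

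With the log2 CPM of Flt3 added to the fit, a choice made after seeing the data, the log2 fold change of H2-Ob was -0.21 in DM (adjusted p = 0.83), -0.44 in Asxl1Y588XTg (adjusted p = 0.711) and -0.27 in Srsf2P95H/+ (adjusted p = 0.838), each against WT. With the B lineage list added instead it was -1.04 (adjusted p = 0.0622), -1.16 (adjusted p = 0.0839) and -0.86 (adjusted p = 0.139), and with Xist -1.10 (adjusted p = 0.0312), -1.21 (adjusted p = 0.0449) and -0.87 (adjusted p = 0.122), in the same order. Flt3 itself differed with genotype, so its share of the H2-Ob difference and the genotype's cannot be told apart in that fit. The loss was not particular to H2-Ob, since over all genes that fit made 37 calls in DM, 12 in Asxl1Y588XTg and 0 in Srsf2P95H/+ against WT, compared with 2135, 428 and 115 without Flt3.

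**Figure D4:**
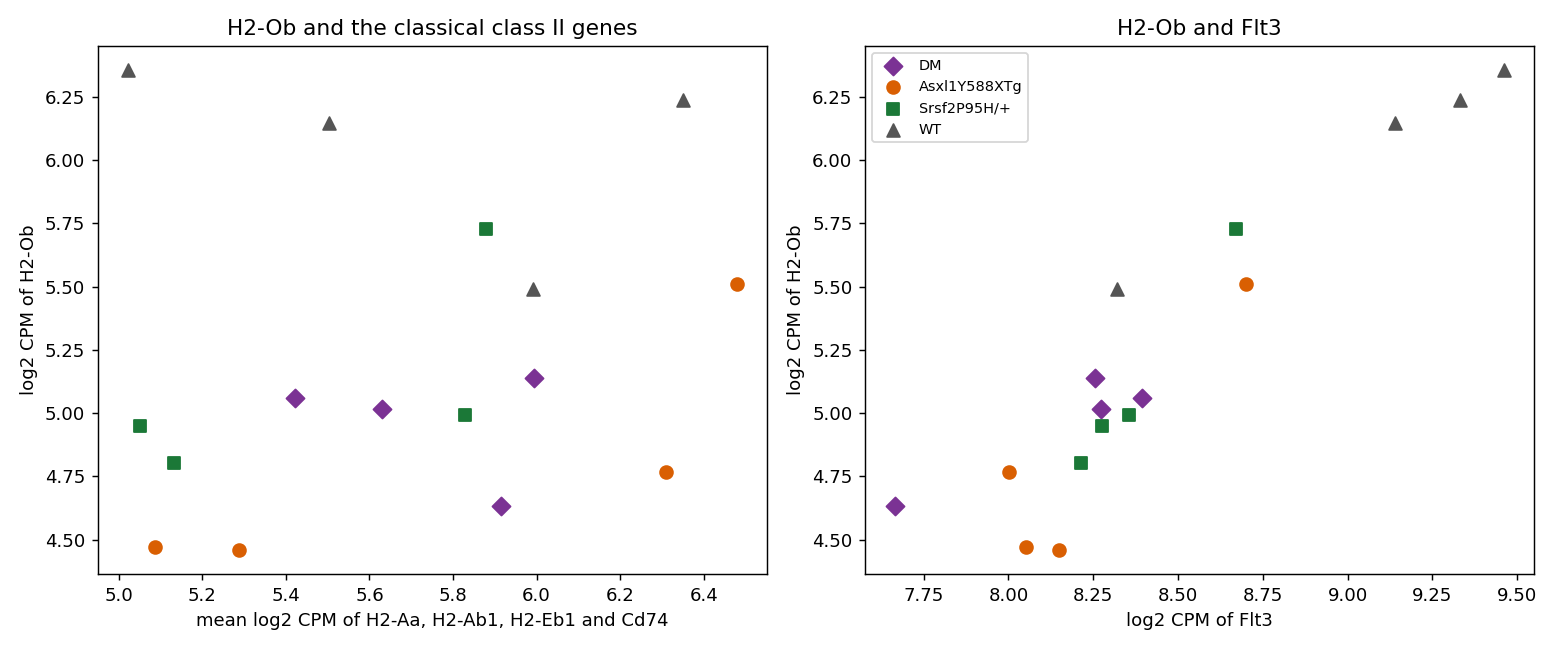
Log2 CPM of H2-Ob in the 16 libraries, set against the mean log2 CPM of H2-Aa, H2-Ab1, H2-Eb1 and Cd74 in 1 panel and against the log2 CPM of Flt3 in the other, with symbols by genotype. H2-Ob follows Flt3 (r 0.94), whereas against the classical mean the WT libraries lie above the others over most of the range.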

How the data were processed

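The members of the MHC class II set, the gene lists and the tests were chosen with earlier results of these data known. The authors deposited 1 table of raw counts per gene for 16 libraries, not normalized; per the submitters' processing notes the tools were FastQC, Trimmomatic 0.38, STAR 2.7.0e and HTSeq 0.11.2 on mm10. Per the labels, libraries were made with the NEB Ultra RNA kit and read as 100 bp pairs. Which annotation was counted, and with what strand setting, is not given in the sources used here, so overlapping genes may share reads. The columns of the Asxl1Y588XTg group carry a shortened name and were matched to that group's titles.

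Counts were tested with edgeR 4.0.16 (quasi-likelihood, TMM factors, filterByExpr with a minimum count of 10, all 16 libraries, genotype as the 1 factor) in R 4.3.3, with Benjamini-Hochberg adjustment over the 22749 genes kept. The p-values measure the spread between individual mice. Log2 CPM used a prior count of 2. DESeq2 1.42.0, other scalings and filters, a replicate block and leaving out each library were alternatives. No 2 replicates agreed within counting noise (lowest chi-square per gene 37.7). The main fit did not pair libraries by replicate number. Correlations of same-numbered deviations lay between -0.293 and 0.295.

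Named were all 10 members, the genes called in 4 pathway lists, and the 10 genes of highest Pearson r with the mean of 4 members or, added later, with H2-Ob. Flt3, Clec9a, Xcr1 and Plbd1 were singled out after their values were seen. Exon lengths and positions came from GENCODE M21 (GRCm38), promoters from RefSeq (GRCm38.p6).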

Additional observations from a re-analysis of the deposited data

Results flagged for a closer look

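In each group of 4 libraries, the highest or lowest value was compared with the others by Dixon's gap ratio, for the members, their ratios, Flt3 and the marker sums. Of 84 groups tested 7 stood out, and chance gives about 1 in 20. H2-Ob was 53.0 CPM in Srsf2P95H/+ 2, against 27.9 to 31.8 CPM in the other 3 libraries of that genotype. Ciita was 6.68 CPM in Srsf2P95H/+ 1, against 7.77 to 7.98 CPM in the others. The summed B lineage markers, Ighm included, were 1284 CPM in Asxl1Y588XTg 3, against 168 to 296 CPM in the others, and 1295 CPM in WT 4, against 244 to 319 CPM in the others; Ighm alone was 1249 and 1122 CPM in those libraries. The summed conventional dendritic cell markers were 443 CPM in Asxl1Y588XTg 2, against 283 to 304 CPM in the others, and Flt3, a gene of that list, was 416 CPM there, against 256 to 284 CPM. The ratio of Cd74 to H2-Aa CPM was 2.08 in WT 4, against 1.60 to 1.63 in the other WT libraries.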

How the results depend on the processing

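The log2 fold change of H2-Ob stayed below 0 in every mutant against WT under every alternative run, but moved to -0.21 in DM, -0.44 in Asxl1Y588XTg and -0.27 in Srsf2P95H/+ with the Flt3 covariate. The count of members called in Asxl1Y588XTg against WT, 1 in the report, was 0 with no filter, with the compared groups only, with the B lineage covariate and with the Flt3 covariate, and 0 to 2 when single libraries were left out. In DM against WT, 1 in the report, it was 0 with the B lineage and Flt3 covariates, and 0 to 1 without single libraries. In Srsf2P95H/+ against WT, 0 in the report, it was 1 with the replicate block and with DESeq2, and 0 to 1 without single libraries. In Asxl1Y588XTg carriers against non-carriers, 0 in the report, it was 1 with the replicate block and with DESeq2, and 0 to 1 without single libraries. The cause of these shifts was not tested. With the replicate number as a block, H2-Ob stood at -1.11 in DM (adjusted p = 0.00458), -1.26 in Asxl1Y588XTg (adjusted p = 0.00382) and -0.95 in Srsf2P95H/+ (adjusted p = 0.0240) against WT. Over all genes the block gave 2288, 648 and 952 calls in that order, compared with 2135, 428 and 115 without it. Per the labels the libraries share only a number, and 3 of 16 correlated best with their own. The H2-Ob difference between DM and Asxl1Y588XTg ranged between -0.031 and 0.40 without single libraries, below 0 without Asxl1Y588XTg 1 or 4, and that between DM and Srsf2P95H/+ ranged between -0.28 and 0.057, above 0 without Srsf2P95H/+ 2 and, at 0.057, with the Flt3 covariate. Of 72 fold changes of the other 9 members, 39 kept their sign in every alternative and 33 changed it in at least 1; 1 was called in 1 alternative. Scaling by library size alone moved the median of all genes to -0.16 in Srsf2P95H/+ and -0.12 in DM against WT, with H2-Ob at -1.05 and -1.22. Every member had 255 counts or more in each library, and what limited the calls was not tested.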

Other observations

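The ratio of Cd74 to H2-Aa CPM was looked at after the values were known. It lay between 1.18 and 1.34 in DM (mean 1.26 ± 0.0695), between 1.53 and 1.97 in Asxl1Y588XTg (1.79 ± 0.192), between 1.502 and 1.67 in Srsf2P95H/+ (1.58 ± 0.0778) and between 1.60 and 2.08 in WT (1.73 ± 0.236; SD, n = 4 each), so every DM library was below the other 12. Neither gene was called alone in any comparison by edgeR.

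Eosinophil genes varied most of the marker lists read, with sums of 58.3 to 121 CPM in DM, 47.9 to 304 in Asxl1Y588XTg, 76.4 to 476 in Srsf2P95H/+ and 41.8 to 1544 in WT. Epx, the eosinophil peroxidase gene, reached 275 CPM in WT 4, the library highest in Cd74, Ciita and the B lineage markers without Ighm. Markers of T, NK and innate lymphoid cells summed to 30.5 to 70.8 CPM over the 16 libraries, with Cd3e at 0 in 2 of them.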
